A study of Mus musculus with 2 samples.

Results

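Epidermal barrier lipids were followed at the level of the transcripts of 9 enzymes and transporters, Sptlc2, Elovl4, Cers3, Pnpla1, Alox12b, Aloxe3, Ugcg, Abca12 and Smpd1, in single-cell libraries of mouse dorsal skin. The genes were taken by symbol, and each of the 9 matched a row among the 32285 genes of the annotation, of which 26223 had a molecule in the cells kept. The outermost living keratinocytes of the epidermis build ceramides with very long acyl chains, pack them as glucosylceramides and sphingomyelins into lamellar bodies and secrete them. Outside the cell the sugar and the phosphocholine are removed again, and the free ceramides, with cholesterol and fatty acids, form the lamellae that keep water in the body. In the ceramides that carry linoleate at the end of the chain, lipoxygenases oxidise that linoleate before the lipid is bound to the cornified envelope, and loss of several of these genes in humans gives ichthyosis.

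The study compared male C3H/HeN mice given vehicle (control) with a model of androgenetic alopecia (AGA), a patterned hair loss that depends on androgens, made by injecting testosterone propionate (TP) under the skin of the shaved back at 0.5 mg per day from an age of 7 weeks. Skin was taken at 9 weeks, and the skin of 15 mice per group was pooled before dissociation with collagenase, so each group is 1 library and no contrast of TP with control could be checked on replicates. A group of the series that also received an antibody against CXCL12 was not analysed here. All values are unique molecular identifiers (UMIs), the number of captured transcripts counted near the 3′ end, and levels are UMIs of a gene per 1000000 UMIs of the same cells (CPM). Where a pair of levels is set as one against the other, the first is the control library and the second the TP library, and a ratio or fold is TP over control. Parentheses after a level or a ratio hold 95% intervals, exact Poisson for levels, exact conditional for ratios and Clopper-Pearson for shares of cells, all of which cover counting error only and not differences between animals, dissociations or libraries.

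The control library held 130999979 UMIs in 45709 barcodes and the TP library 166929585 in 25931, and the 39076 control and 18542 TP cells kept had medians of 2045 and 4773.5 UMIs. The limit on mitochondrial counts removed 7.58% of the control and 22.6% of the TP barcodes, and 303 barcode sequences occurred in both libraries. Clustering without the 9 genes and without the other genes of sphingolipid and acyl chain metabolism gave 29 clusters, of which 7 carried no name, and these held 15100 control and 2689 TP cells. In the interfollicular epidermis (IFE), basal-like cells numbered 2627 in control and 2777 in TP, spinous-like cells 1338 and 2047, and granular-like cells 1405 and 1862, together 13.7% of the control and 36.1% of the TP cells. Summed over its cells, the granular-like cluster carried Klk7, Hrnr, Flg2, Flg and Lor in both libraries, at median depths of 7393 UMIs per control cell and 14685.5 per TP cell. Of its cells, 917 of the 1405 in control and 617 of the 1862 in TP had no UMI of Lor, Flg and Flg2. No cluster was named for sebocytes at this setting. Free RNA was read in dermal fibroblast-, dermal papilla- and smooth muscle-like cells together, where Elovl4 stood at 24.3 against 36.1 CPM, Abca12 at 16 against 16.1 CPM, and Alox12b at 1.07 against 3.60 CPM. These levels are a stand-in, not a floor, and may hold transcripts of the cells themselves. Control Elovl4 was only 10.9 CPM (8.85 to 13.2) in the cycling-like cluster 6. Control Smpd1 was 18.2 CPM in the dermal classes and 6.16 CPM in basal-like cells.

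On GRCm38.p6 the genes lie on 7 chromosomes, and RefSeq positions were matched by symbol for all 9. Aloxe3 (ENSMUSG00000020892, chr11:69125417-69149115) and Alox12b (ENSMUSG00000032807, chr11:69157072-69169791) are neighbours, 7956 bp apart with no protein-coding gene between them. The others are Sptlc2 (ENSMUSG00000021036, chr12:87305058-87388355), Elovl4 (ENSMUSG00000032262, chr9:83778692-83806305), Cers3 (ENSMUSG00000030510, chr7:66733118-66823692), Pnpla1 (ENSMUSG00000043286, chr17:28858286-28890308), Ugcg (ENSMUSG00000028381, chr4:59189507-59222833), Abca12 (ENSMUSG00000050296, chr1:71243090-71414910) and Smpd1 (ENSMUSG00000037049, chr7:105554360-105558389). RefSeq promoters of the same build, 250 bases before to 50 bases after a start site, were at hand for 8 of the 9, all but Aloxe3. Those of Alox12b, Pnpla1, Elovl4 and Ugcg are shown to set genes highest in granular-like cells beside that of Ugcg, which was highest outside the epidermis. Capitals mark matches to CCNCNCCC on either strand, a motif of Krüppel-like factors that also covers many GC boxes of the Sp factors.
Alox12b, chr11:69156822-69157121, plus strand: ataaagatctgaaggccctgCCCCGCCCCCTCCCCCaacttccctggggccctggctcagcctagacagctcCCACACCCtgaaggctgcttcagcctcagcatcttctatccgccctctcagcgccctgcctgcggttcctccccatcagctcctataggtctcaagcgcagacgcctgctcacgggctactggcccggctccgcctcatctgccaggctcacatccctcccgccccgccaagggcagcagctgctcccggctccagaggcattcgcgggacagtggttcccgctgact
Pnpla1, chr17:28858161-28858460, plus strand: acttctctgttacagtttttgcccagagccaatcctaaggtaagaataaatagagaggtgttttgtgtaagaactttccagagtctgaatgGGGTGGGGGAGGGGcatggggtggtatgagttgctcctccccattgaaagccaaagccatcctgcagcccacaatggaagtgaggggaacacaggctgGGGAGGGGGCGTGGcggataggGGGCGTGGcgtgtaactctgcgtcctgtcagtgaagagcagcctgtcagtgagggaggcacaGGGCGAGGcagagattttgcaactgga
Elovl4, chr9:83806256-83806555, minus strand: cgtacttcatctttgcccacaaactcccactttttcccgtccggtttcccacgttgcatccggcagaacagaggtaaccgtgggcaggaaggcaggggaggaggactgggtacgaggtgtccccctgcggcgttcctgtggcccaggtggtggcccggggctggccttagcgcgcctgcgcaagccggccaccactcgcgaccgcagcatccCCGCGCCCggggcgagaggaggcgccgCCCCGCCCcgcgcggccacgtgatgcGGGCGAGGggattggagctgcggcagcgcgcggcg
Ugcg, chr4:59189300-59189599, plus strand: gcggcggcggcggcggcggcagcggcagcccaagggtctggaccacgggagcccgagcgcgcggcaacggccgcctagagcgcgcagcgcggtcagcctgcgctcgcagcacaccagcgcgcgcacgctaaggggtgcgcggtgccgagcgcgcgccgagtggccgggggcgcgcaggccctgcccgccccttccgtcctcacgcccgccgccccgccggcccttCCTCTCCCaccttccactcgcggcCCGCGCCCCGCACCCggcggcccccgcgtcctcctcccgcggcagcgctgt
The motif was present in 6 of the 8 promoters and in 49.5% of the 32851 mouse promoters of this length, so its presence does not set the genes apart. The AP-1 motif TGANTCA was in 0 of 8 and in 7.81% of all promoters, AACNGGTT of the grainyhead-like factors in 0 of 8 and 2.09%, the TATA box TATAAA in 0 of 8 and 13.6%, the direct repeat of the peroxisome proliferator-activated receptors in 0 of 8 and 0.0396%, and the C/EBP core TTNCNNAA in 1 of 8, that of Pnpla1, and 40.7%, each counted on both strands. The promoters differed in CG pairs, with 53 in Ugcg, 35 in Elovl4, 19 in Sptlc2, 16 in Smpd1, 15 in Alox12b, 7 in Cers3 and 6 in both Abca12 and Pnpla1, against a median of 7 over all promoters.

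The first question was in which cells of the skin each gene was found. Sptlc2, a catalytic subunit of the serine palmitoyltransferase that makes the sphingoid base of every ceramide, was detected in every class. It was 90.1 CPM (84.8 to 95.7) against 108 CPM (105 to 112) in granular-like cells, 66.7 against 79.0 CPM in spinous-like cells and 62.7 against 83.7 CPM in basal-like cells. Its highest levels were outside the epidermis, 341 CPM (278 to 414) against 260.0 CPM (225 to 299) in endothelial-like cells and 335 CPM (305 to 367) against 204 CPM (178 to 232) in melanocyte-like cells. The intervals of these 2 classes overlapped in both libraries, and granular-like cells held 12.6% of the Sptlc2 UMIs of control and 29.3% of those of TP. Granular-like cells held 11.1% of all control UMIs and 24.7% of all TP UMIs.

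Elovl4, the elongase that makes the very long acyl chains of barrier ceramides, was mainly a gene of the suprabasal epidermis. It was 30.5 CPM (26.2 to 35.3) against 51.4 CPM (47.3 to 55.8) in basal-like cells. In spinous-like cells it was 246 CPM (232 to 261) against 439.8 CPM (429.6 to 450.1), and in granular-like cells 495 CPM (483 to 508) against 825 CPM (816 to 835). The control basal level was close to that of the dermal classes given above, whereas the granular-like level was 16.3 (14.0 to 19.0) times the basal-like level in control and 16 (14.8 to 17.4) times in TP. Granular-like cells ranked highest of all classes in both libraries, with an interval apart from that of the next class, and held 56.4% of the gene's control UMIs and 65.2% of its TP UMIs. After thinning every cell to 1000 UMIs, 36.5% (34 to 39.1) of the granular-like cells of control and 54.0% (51.7 to 56.3) of those of TP had an Elovl4 UMI, against 2.39% (1.93 to 2.92) and 3.76% (2.83 to 4.89) of the dermal papilla-like cells, whose median depths were 2414 and 5041.5 UMIs. Unthinned, the shares of granular-like cells were 86.5% and 98.9%.

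Cers3, the ceramide synthase that joins these acyl chains to the sphingoid base, was spread more evenly over the epidermal and follicle classes. Its level was 45.0 CPM (39.8 to 50.8) against 55.7 CPM (51.5 to 60.2) in basal-like cells, 44.4 against 68.6 CPM in spinous-like cells and 62.5 CPM (58.1 to 67.2) against 89.6 CPM (86.4 to 92.9) in granular-like cells, so that the granular-like level was 1.39 (1.2 to 1.6) times the basal-like one in control and 1.61 (1.48 to 1.75) times in TP. The cortex-like cells of the hair shaft, 164 in control and 50 in TP, held 79.6 CPM (60.6 to 103) against 118 CPM (85.5 to 158). An unnamed cluster, number 16, led by Ghr and Il34 and carrying IFE spinous markers below the score for a name, held 64.0 CPM (53.1 to 76.5) against 139.6 CPM (127 to 154). The intervals of these 2 classes overlapped in both libraries, and in control both also overlapped that of granular-like cells. In the pooled dermal classes Cers3 was 8.70 against 4.28 CPM.

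Pnpla1, the transacylase that places linoleate on the end of the ceramide chain, followed the order of the layers. It was 6.51 CPM (4.60 to 8.93) against 5.96 CPM (4.63 to 7.55) in basal-like cells, 23.6 CPM (19.4 to 28.5) against 33.0 CPM (30.2 to 35.9) in spinous-like cells and 39.4 CPM (35.9 to 43.1) against 56.0 CPM (53.4 to 58.6) in granular-like cells. The intervals of granular-like cells and of cluster 16, 35.7 against 47.8 CPM, overlapped in both libraries. In the pooled dermal classes it was 3.36 against 1.90 CPM, and the control dermal fibroblast-like cells had 0 UMIs, where a count of 3 would be 5.42 CPM.

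The 2 epidermal lipoxygenases, Alox12b, which oxidises the linoleate of the ceramide, and Aloxe3, which converts its hydroperoxide, had the narrowest distribution. Alox12b was 24.3 CPM (21.5 to 27.2) against 70.8 CPM (67.9 to 73.7) in granular-like cells. In spinous-like cells it had 4 UMIs in control, 0.883 CPM (0.241 to 2.26), and 132 in TP, 8.20 CPM (6.86 to 9.72). In basal-like cells it had 5 and 42 UMIs, or 0.856 against 3.68 CPM, close to the dermal classes. These basal levels were thus not told apart from the dermal levels read as free RNA. Granular-like cells held 68.6% of the Alox12b UMIs of control and 80.9% of those of TP, the largest such shares of the 9 genes. Aloxe3 was 22.4 CPM (19.8 to 25.3) against 36.4 CPM (34.3 to 38.5) in granular-like cells, 9.07 against 19.7 CPM in cluster 16, 3.75 against 7.33 CPM in spinous-like cells and 1.88 against 4.47 CPM in basal-like cells. Granular-like cells held 62.7% and 73.7% of its UMIs. In the pooled dermal classes Aloxe3 was 1.6 against 1.15 CPM, and endothelial-like cells had 0 UMIs of it in both libraries, where a count of 3 would be 9.94 CPM in control and 3.92 CPM in TP.

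Ugcg, the glucosylceramide synthase, had its highest levels outside the epidermis. It was 48.0 CPM (44.1 to 52.1) against 100.1 CPM (96.7 to 104) in granular-like cells, 26.7 against 39.8 CPM in spinous-like cells and 13.2 against 15.9 CPM in basal-like cells. In melanocyte-like cells it was 545 CPM (506 to 585) against 227 CPM (199.7 to 256), and in endothelial-like cells 278 CPM (222 to 344) against 525 CPM (475 to 579). Lymphocyte-like cells held 120.0 against 245 CPM and cortex-like cells 105 against 149.7 CPM. Melanocyte-like cells held the highest level in control and endothelial-like cells in TP, each with an interval apart from the next. The class with the largest part of its UMIs was melanocyte-like in control, with 16.5%, and granular-like in TP, with 42.7%. The 3 IFE classes together held 16.7% of its control UMIs and 53.5% of its TP UMIs. Of all UMIs, granular-like cells held 11.1% in control and 24.7% in TP, spinous-like cells 4.28% and 12.3%, and basal-like cells 5.51% and 8.69%. The Ugcg shares are read beside these sizes of the classes.

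Abca12, the transporter that loads glucosylceramides into lamellar bodies, was found from the basal layer on. It was 75.9 CPM (69.0 to 83.3) against 102 CPM (96.6 to 108) in basal-like cells, 291 CPM (275 to 307) against 368 CPM (359 to 378) in spinous-like cells and 434 CPM (422 to 446) against 526 CPM (518 to 534) in granular-like cells. Cluster 16 held still more, 686 CPM (649 to 724) against 901 CPM (868 to 936), and the intervals of the 4 highest classes, upper hair follicle-like cells with 241 against 318 CPM included, were apart from one another in both libraries. Together the 3 IFE classes, cluster 16 and the upper hair follicle-like cells held 76.0% of the Abca12 UMIs of control and 93.8% of those of TP, which had 25.3% and 54.0% of all UMIs.

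Smpd1, the acid sphingomyelinase, which releases ceramide from sphingomyelin, had its highest level in the hair shaft. Cortex-like cells held 131 CPM (106 to 159.6) against 189.8 CPM (148 to 239), and melanocyte-like cells 49.8 CPM (38.8 to 63.1) against 64.3 CPM (50.4 to 80.9). In granular-like cells it was 15.8 CPM (13.6 to 18.2) against 46.8 CPM (44.5 to 49.2). The interval of the control granular-like level overlapped that of the pooled dermal classes, which were at 18.2 against 19.5 CPM, and the TP granular-like level was above it. In basal-like cells Smpd1 was lower than in the dermal classes, 6.16 against 9.72 CPM, so the dermal level is not read as background for this gene. The heat map of levels shows the largest values of 6 genes in granular-like cells, cluster 16 or cortex-like cells in each library, and those of Smpd1 in cortex-like and of Sptlc2 and Ugcg in endothelial- or melanocyte-like cells.

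**Figure D1:**
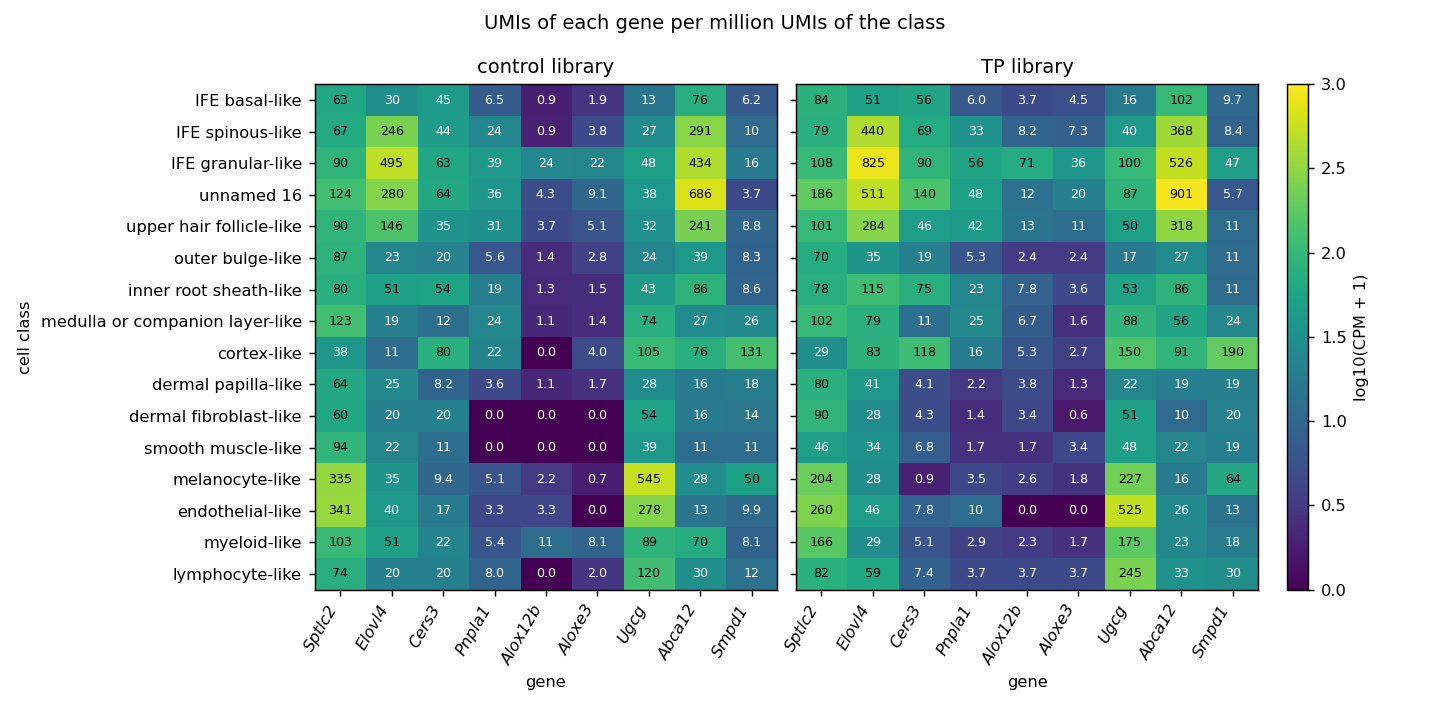
Levels of the 9 genes (columns) in 16 cell classes (rows), with the control library on the left and the TP library on the right. Colour is log10(CPM + 1) and the number in each cell is the CPM, for example 495 for Elovl4 in granular-like cells of control and 825 in TP, while Ugcg is highest in melanocyte-like cells of control (545) and in endothelial-like cells of TP (525).

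The IFE cells of both libraries were then ordered by a score of differentiation that uses none of the 9 genes, the share of Krt1, Krt10, Krtdap, Sbsn, Lor, Flg and Flg2 among the UMIs of these genes and Krt5, Krt14 and Krt15, and divided into 10 steps. The steps are ranges of a score and not cell types. Elovl4 was 24.8 CPM at step 1, 223 at step 5 and 596 at step 10 in control, and 30.1, 207 and 865 CPM in TP. TP was higher at 9 of the 10 steps, with step 5 as the exception, and the difference in CPM was widest from step 7 on. The libraries were not matched within a step. At step 5 granular-like cells made up 29.9% of the control and 6.34% of the TP cells. At step 10 Flg was 80.5 against 1105 CPM and Lor 61.0 against 394 CPM, and basal-like cells were 11.7% of the control and 4.94% of the TP cells. Step 10 was also not the step with the largest share of granular-like cells. They were 65.3% of the control and 62.5% of the TP cells at step 9, and 42.3% and 49.4% at step 10. Control Flg was 154 CPM at step 9. The part of these differences in the courses was not tested. Abca12 was 53.6, 275 and 478 CPM at these steps in control and 54.4, 321 and 512 CPM in TP, so that its courses in the libraries lay much closer. Pnpla1 went from 2.66 to 44.8 CPM in control and from 6.14 to 56.3 CPM in TP.

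The lipoxygenases came late in this order. Alox12b was 0.705 CPM at step 4, 13.7 at step 6 and 38.1 at step 9 in control, and 2.85, 21.7 and 70.8 CPM in TP. Aloxe3 was 3.53, 14.4 and 19.4 CPM at the same steps in control and 5.22, 17.9 and 29.7 CPM in TP. Both were low before the middle of the order, where Elovl4 and Abca12 were already well above their values at step 1. Smpd1 was low up to step 5, 7.69 CPM in control and 8.12 CPM in TP, and reached 20.3 and 47.9 CPM at step 10. Ugcg went from 7.98 to 64.3 CPM in control and from 9.21 to 87.6 CPM in TP, with its highest TP value of 96.9 CPM at step 8. Cers3, from 32.4 to 59.8 CPM in control and from 50.5 to 86.1 CPM in TP, and Sptlc2, from 52.7 to 104 CPM and from 68.7 to 101 CPM, had the flattest courses.

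**Figure D2:**
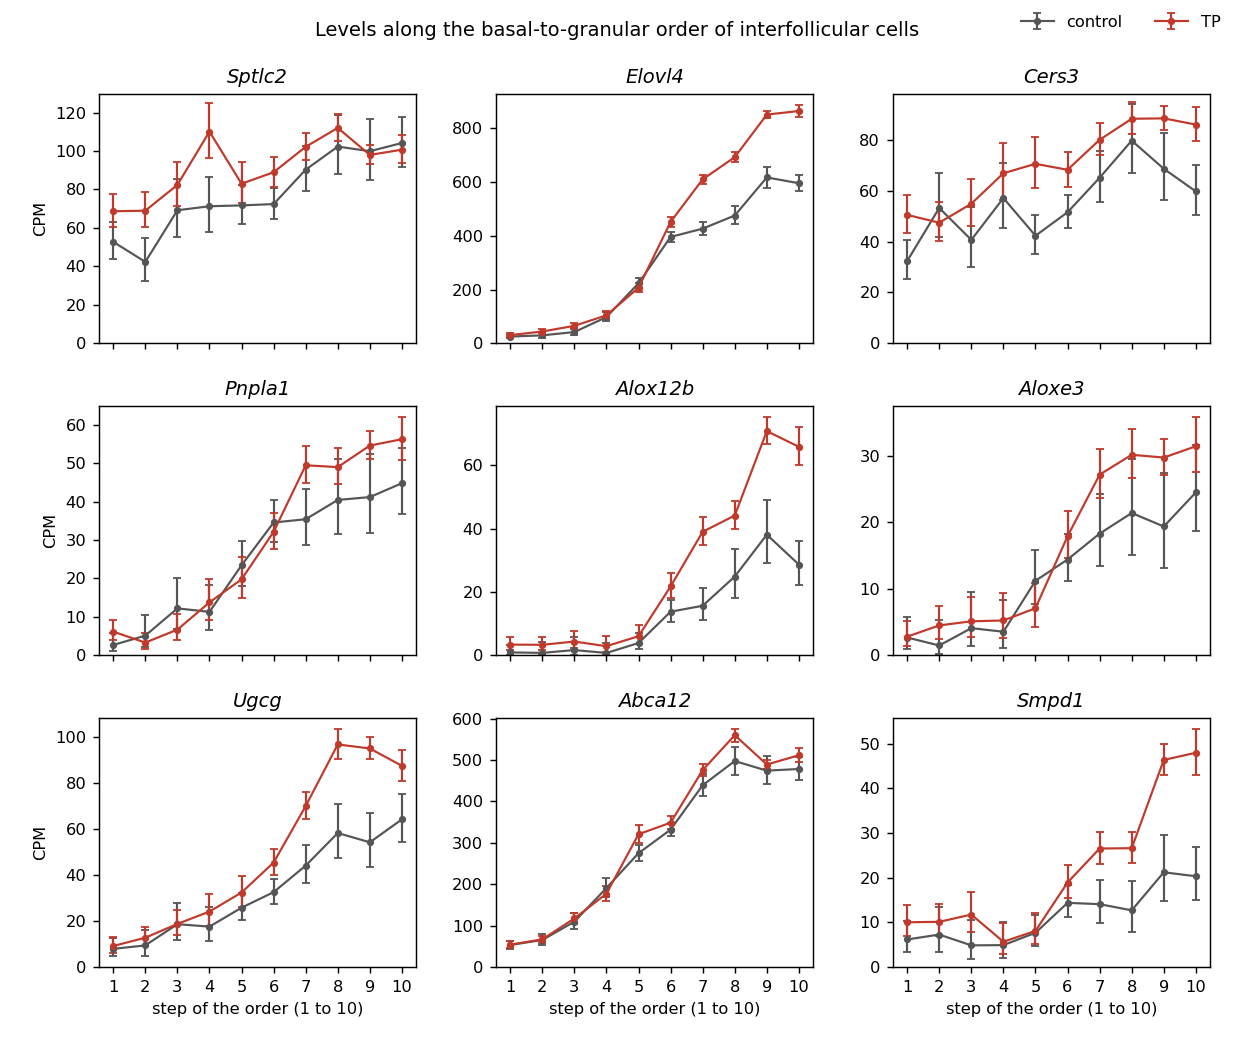
Level of each gene in CPM (vertical axes, from 0) over 10 steps of the differentiation score of IFE cells (horizontal axis), control in grey and TP in red, with 95% Poisson intervals as bars. Alox12b and Smpd1 stay low over the lower steps and then climb higher in TP (65.8 and 47.9 CPM at step 10) than in control (28.6 and 20.3 CPM), while the Abca12 curves of the libraries lie close together.

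The study's main contrast was TP against control. Within granular-like cells all 9 genes were higher in TP, and their UMIs together were 1.51 times the control level. Most of these UMIs were of Elovl4, with 5840 in control and 26788 in TP, and of Abca12, with 5116 and 17061. Sptlc2 came next with 1062 and 3514, so the pooled ratio is mainly that of Elovl4 and Abca12. Smpd1, at 15.8 against 46.8 CPM, had a ratio of 2.97 (2.55 to 3.47), which was 5.42 in cells thinned to 1000 UMIs. For Alox12b the ratio was 2.92 (2.58 to 3.31), from 286 control and 2297 TP UMIs, and for Ugcg 2.09 (1.91 to 2.28). These 3 were at least 2-fold higher, against 2.41% of the 12051 genes with at least 50 UMIs in this class, and 29% of those genes were higher by any amount. At a resolution of 1.6 none of the 3 reached 2-fold, with Smpd1 at 1.90, Alox12b at 1.55 and Ugcg at 1.48. Elovl4 had a ratio of 1.67 (1.62 to 1.71), Aloxe3 1.62 (1.42 to 1.86), Cers3 1.43 (1.32 to 1.56), Pnpla1 1.42 (1.28 to 1.58), Abca12 1.21 (1.17 to 1.2499) and Sptlc2 1.2 (1.12 to 1.29). The intervals of all 9 lay above 1. The median log2 ratio of the 9 was 0.70, and that of all genes tested was -0.29. The members' ratios are thus read against a typical gene that was lower in TP. Other epidermal genes were higher as well. The 8 IFE spinous markers summed to 40550 against 63708 CPM in these cells, with 2 at least 2-fold higher and 0 lower, whereas the basal markers, given below, were lower. The part of this in the members' ratios was not tested. With edgeR's TMM factor of 0.776 in place of the UMI total every ratio is larger, and 5 of the 9 genes were at least 2-fold higher. This factor raises the ratio of every gene alike. The share of all genes past 2-fold was not counted with it, so the 5 are not set beside a background.

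In spinous-like cells 8 of the 9 were higher in TP and 1 of them at least 2-fold, against 1.41% of 10720 genes at least 2-fold and 31.8% by any amount, with a median log2 ratio of -0.17 over all genes. This was Alox12b, with a ratio of 9.28 (3.54 to 34.6) on 4 control UMIs. Its control level was not told apart from that of the pooled dermal classes, so the fold is read over a background level. With other borders of the class this ratio was 3.50 at a resolution of 0.6 and 2.14 at 1.6, and with 15% doublets removed it was 16. The ratios of Elovl4, 1.78 (1.68 to 1.90), Cers3, 1.55 (1.33 to 1.81), Ugcg, 1.49 (1.22 to 1.82), and Pnpla1, 1.40 (1.13 to 1.73), had intervals above 1. Those of Aloxe3, 1.95 (1.17 to 3.46), Abca12, 1.26 (1.19 to 1.34), and Sptlc2, 1.19 (1.04 to 1.35), did as well, with Aloxe3 at 1.12 at a resolution of 1.6. Smpd1, 0.831 (0.591 to 1.19), did not differ detectably at this depth, and its ratio was 0.474 in thinned cells and 1.27 at a resolution of 1.6. Markers of other classes differed in these spinous-like cells too. The 10 granular markers summed to 69.8 against 291 CPM, with 5 at least 2-fold higher, the 7 inner root sheath markers to 1850.3 against 383 CPM, with 6 at least 2-fold lower, and the 6 cycling markers to 611 against 156 CPM, with 6 at least 2-fold lower. The 6 medulla or companion layer markers summed to 107 against 516 CPM, with 3 at least 2-fold higher and 2 lower. The 6 cortex markers summed to 232 against 54.1 CPM and the 6 dermal papilla markers to 84.3 against 26.9 CPM, with 6 at least 2-fold lower in each. The 7 myeloid markers summed to 10.2 against 20.2 CPM, with 5 at least 2-fold higher. The 8 spinous markers of the class itself summed to 32448 against 53523 CPM, with 0 at least 2-fold different. The part of all these markers in the ratios was not tested.

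In basal-like cells 8 of the 9 had at least 50 UMIs, 7 of these were higher in TP, and 1, Aloxe3 with a ratio of 2.37 (1.22 to 5.05), was at least 2-fold higher, against 1.48% of 11020 genes, of which 30.5% were higher by any amount and the median log2 ratio was -0.16. The control level of Aloxe3, 1.88 CPM on 11 UMIs, was not told apart from that of the pooled dermal classes, so this fold is read over a background level. Its TP level, 4.47 CPM (3.33 to 5.87), lay above that of the same classes in TP. In thinned cells the ratio of Aloxe3 was 1.39, where 7 control and 11 TP cells had a UMI of it. Elovl4 had a ratio of 1.69 (1.42 to 2.01), Smpd1 1.58 (1.07 to 2.37), Abca12 1.35 (1.21 to 1.51), Sptlc2 1.33 (1.18 to 1.51) and Cers3 1.24 (1.07 to 1.43). The intervals of Ugcg, 1.2 (0.916 to 1.59), and Pnpla1, 0.915 (0.607 to 1.40), included 1, and Pnpla1 lay above 1 under 6 of 8 alternatives, up to 1.2471 in thinned cells. Elovl4 in the pooled dermal classes also had a ratio above 1, 1.48 (1.29 to 1.71), and so did Alox12b, 3.37 (1.84 to 6.57). In basal-like cells the 10 granular markers summed to 42.1 against 126 CPM, with 7 at least 2-fold higher, the inner root sheath markers to 2346 against 493 CPM, with 7 of 7 at least 2-fold lower, and the cycling markers to 874 against 281 CPM, with 6 of 6 at least 2-fold lower. The medulla or companion layer markers summed to 70.7 against 254 CPM, with 3 at least 2-fold higher and 2 lower. The 7 basal markers of the class itself summed to 14723 against 23370 CPM, with 0 at least 2-fold different. The 8 spinous markers summed to 3562 against 6655 CPM, with 1 at least 2-fold higher and 0 lower. The part of free RNA and of all these markers in the basal-like ratios was not tested.

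**Figure D3:**
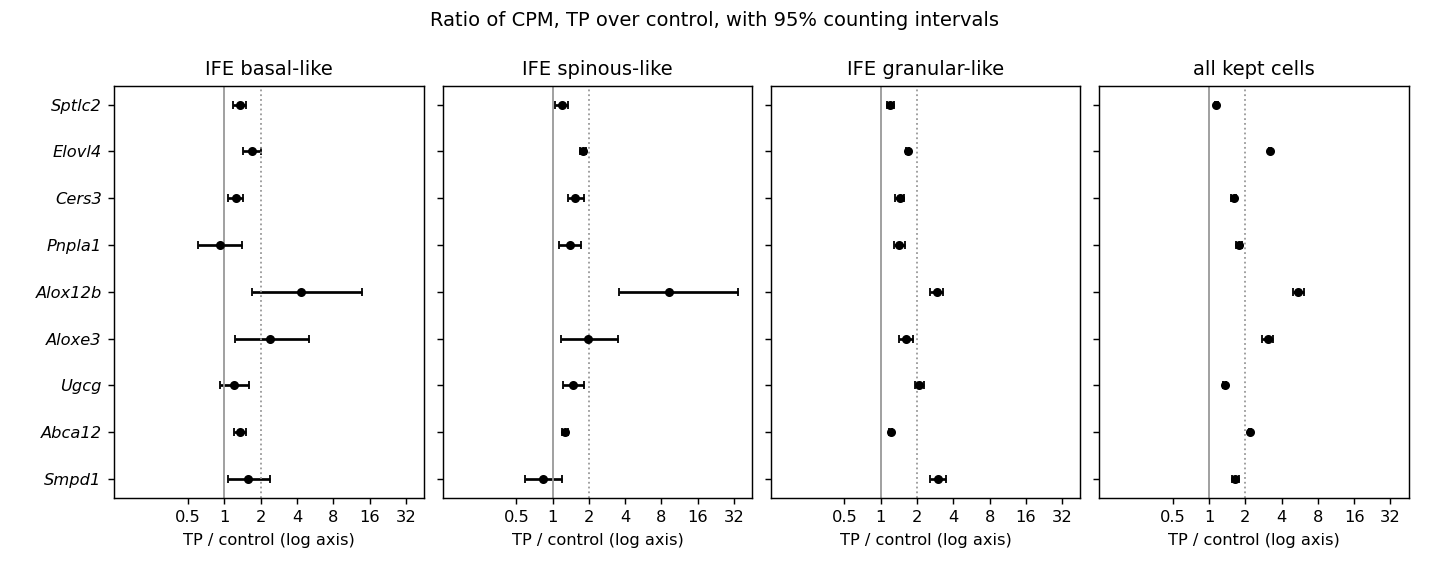
Ratio of the level in TP to that in control for each gene (rows) in basal-, spinous- and granular-like cells and over all kept cells (panels), on a log axis with 95% counting intervals as bars, and lines at 1 and at 2. In granular-like cells all 9 points lie right of 1, from 1.2 for Sptlc2 to 2.97 for Smpd1, and over all cells Alox12b reaches 5.49.

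The granular-like cells of TP also differed from those of control in the late differentiation genes used as markers. Lor was 39.2 against 324 CPM, or 8.26-fold (7.53 to 9.09). Flg was 78.4 against 691 CPM, or 8.82-fold (8.26 to 9.43), and Klk7 180.1 against 738 CPM, or 4.10-fold (3.92 to 4.28). These genes of the cornified envelope, of keratohyalin and of desquamation were thus far higher in TP, and of the 10 granular markers 8 were at least 2-fold higher, Flg2 was 1.83 (1.74 to 1.92) and 1, Lce1c, was at least 2-fold lower on 3 UMIs in each library. The summed level of these 10 was 810.0 against 3249.7 CPM, that of the 7 basal markers 5018 against 2343 CPM and that of the 6 cycling markers 498 against 150.5 CPM. The 7 upper hair follicle markers summed to 702 against 1545 CPM, with 3 at least 2-fold higher, and the 6 medulla or companion layer markers to 51.7 against 247 CPM, with 3 at least 2-fold higher and 1 lower. No gene of these 5 lists was at 0, and the part of the upper hair follicle and medulla markers in the ratios was not tested. The basal markers Krt5, with a ratio of 0.383 (0.374 to 0.392), and Krt14, 0.476 (0.468 to 0.485), were lower, and 5 of the 7 basal markers were at least 2-fold lower. The cluster was divided, in an alternative added after these values had been seen, into cells with no UMI of Lor, Flg and Flg2 (917 in control and 617 in TP) and, of the others, 3 groups of low, middle and high share of these genes.

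Among the cells with no UMI of Lor, Flg and Flg2, Alox12b was 11.3 against 42.2 CPM, a ratio of 3.73 (2.89 to 4.85). In the low, middle and high groups its ratios were 1.92 (1.39 to 2.72), 2.07 (1.6 to 2.73) and 1.86 (1.52 to 2.30). Ugcg had ratios of 2.16 (1.86 to 2.50), 1.88 (1.44 to 2.49), 1.86 (1.52 to 2.30) and 1.67 (1.40 to 2.00) over the 4 groups. Alox12b and Ugcg were thus higher in TP within each of the 4 groups, which do not hold like cells. The median depth of the cells without these UMIs was 6394 UMIs in control and 10388 in TP, and that of the high group 6318 and 14969. Smpd1 had 1.61 (1.17 to 2.23) among the cells without these UMIs and 2.57 (1.99 to 3.36) in the high group, where its level was 43.3 against 111 CPM. Elovl4 was between 1.38 and 1.78 times as high in TP over the groups and Cers3 between 1.34 and 1.46 times. Abca12 had 1.41 (1.35 to 1.48) in the cells without these UMIs and 0.997 (0.93 to 1.07) in the high group. Within the high group Lor was still 4.96 (4.48 to 5.50) times as high in TP, so the groups do not make the libraries equal in these genes. With the 4 groups weighted as in control, the ratios were 2.42 for Alox12b, 2.12 for Smpd1, 1.95 for Ugcg and 1.62 for Elovl4, and 2 of the 9 were at least 2-fold higher. The share of all genes past 2-fold was not counted with these weights.

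**Figure D4:**
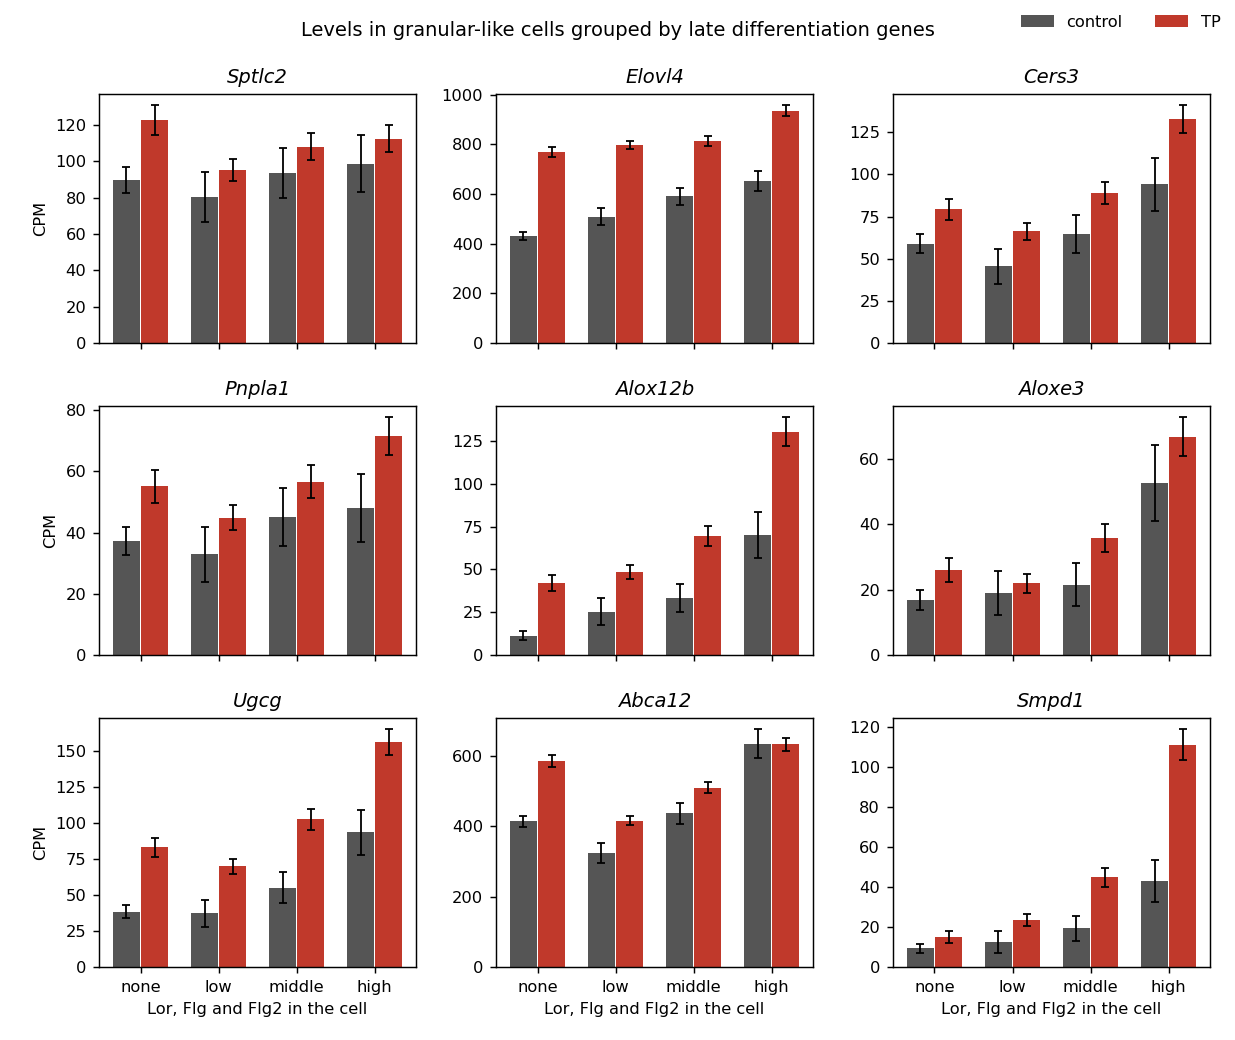
Level of each gene in CPM (vertical axes, from 0) in granular-like cells with no UMI of Lor, Flg and Flg2 and with a low, middle or high share of them (horizontal axis), control in grey and TP in red, with 95% intervals from the Poisson standard error as bars. Alox12b, Ugcg, Elovl4 and Smpd1 are higher in TP in each group, whereas Abca12 is at 635 and 633 CPM in the high group.

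A finer clustering, at a resolution of 1.6, gave another border between the layers. Its granular-like cluster held 161 control and 627 TP cells, so that most cells of the class of 1405 and 1862 cells lay outside it in both libraries. It had Alox12b at 72.1 against 112 CPM, a ratio of 1.55 (1.29 to 1.89). There Smpd1 had a ratio of 1.90 (1.51 to 2.44), Ugcg 1.48 (1.24 to 1.77), Elovl4 1.2 (1.13 to 1.27) and Cers3 1.28 (1.08 to 1.54). Abca12 was 1.02 (0.952 to 1.10), and Sptlc2, 0.907 (0.776 to 1.06), lay below 1 with an interval that included it. None of the 9 reached 2-fold in this cluster. Clusters 4, 14 and 28 were spinous-like at that setting. In cluster 14, with 898 control and 836 TP cells, Alox12b had a ratio of 2.78 (2.29 to 3.40), Ugcg 1.88 (1.66 to 2.15), Elovl4 1.67 (1.61 to 1.73) and Smpd1 1.6 (1.26 to 2.05). In cluster 28 Abca12 was 845 against 1088 CPM and Cers3 102 against 150.5 CPM, both higher than in the granular-like cluster. For Cers3 in control the intervals of cluster 28 (85.9 to 121) and of the granular-like cluster (68.6 to 96.8) overlapped. A sebocyte-like cluster appeared there as well, with 541 control and 576 TP cells, in which Elovl4 was 24.4 and 54.8 CPM and Alox12b 0.977 and 2.09 CPM, and Abca12 96.8 and 85.3 CPM. Ugcg there was 13.7 against 4.18 CPM, a ratio of 0.305 (0.121 to 0.739).

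Over all kept cells of a library the ratios of Alox12b, Elovl4, Aloxe3, Abca12, Pnpla1 and Cers3 were larger than in granular-like cells. Those of Smpd1, Ugcg and Sptlc2 were smaller. Taken alone, these ratios do not tell the share of epidermal cells apart from the level of a gene within a class. Alox12b was 3.94 CPM (3.57 to 4.33) against 21.6 CPM (20.8 to 22.4), a ratio of 5.49 (4.95 to 6.10). Elovl4 was 97.8 against 313 CPM, a ratio of 3.20 (3.13 to 3.27), and Aloxe3 and Abca12 had ratios of 3.07 (2.76 to 3.43) and 2.18 (2.13 to 2.22). These 4 were at least 2-fold higher, against 8.43% of 17569 genes, of which 35.1% were higher by any amount at a median log2 ratio of -0.23. The other 5, Pnpla1 with 1.78 (1.68 to 1.89), Smpd1 with 1.65 (1.55 to 1.77), Cers3 with 1.6 (1.54 to 1.67), Ugcg with 1.35 (1.30 to 1.40) and Sptlc2 with 1.15 (1.12 to 1.18), were higher by less. Alox12b, Elovl4, Aloxe3 and Abca12 were also the genes with most of their control UMIs in the 3 IFE classes, between 59.2% for Abca12 and 70.7% for Alox12b, whereas in TP 8 of the 9 had most of theirs there. The 3 classes were themselves larger in TP, with granular-like cells at 11.1% of all UMIs in control and 24.7% in TP. With each class weighted by its share of the control UMIs in both libraries, the ratio of Alox12b was 3.25, of Elovl4 1.79, of Aloxe3 1.68 and of Abca12 1.23. For Smpd1 it was then 1.43, for Cers3 1.35, for Pnpla1 1.22, for Ugcg 1.16 and for Sptlc2 1.07. All 9 thus kept a ratio above 1 and only Alox12b one of at least 2.

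Other epithelial classes also differed, some with larger ratios than the IFE. Elovl4 had a ratio of 4.10 (3.10 to 5.48) in medulla or companion layer-like cells, from 19.4 against 79.3 CPM, levels that in control were below those of the pooled dermal classes. In an unnamed cluster, number 18, Elovl4 was 38.0 against 138 CPM, a ratio of 3.62 (2.98 to 4.42). The intervals of both ratios lay above that of Elovl4 in granular-like cells, and the differences between classes were not tested. After thinning, 1.91% (1.15 to 2.96) of the control and 4.97% (2.92 to 7.84) of the TP medulla or companion layer-like cells had an Elovl4 UMI, with intervals that overlapped. In cluster 18 the shares were 3.02% (2.05 to 4.28) and 10% (6.90 to 13.9), with intervals apart. In upper hair follicle-like cells all 9 genes were higher in TP and 1, Alox12b with 3.57 (1.86 to 7.66), at least 2-fold, against 1.88% of 10374 genes at least 2-fold and 35.3% by any amount. The control level of Alox12b, 3.67 CPM (1.76 to 6.75) on 10 UMIs, overlapped that of the pooled dermal classes (0.584 to 1.79), so this fold is read over a background level. Its TP level, 13.1 CPM (10.7 to 15.9), lay above theirs (2.70 to 4.71). Elovl4 was 146 against 284 CPM in upper hair follicle-like cells, a ratio of 1.95 (1.75 to 2.17). In cluster 16, 7 genes had at least 50 UMIs, all 7 were higher, and Ugcg with 2.27 (1.74 to 2.99), Cers3 with 2.18 (1.78 to 2.69) and Aloxe3 with 2.17 (1.2497 to 3.98) were at least 2-fold higher, against 1.57% of 8399 genes at least 2-fold and 36.4% by any amount. Cers3 thus had a larger ratio in cluster 16 than in granular-like cells, with intervals that did not overlap. The interval of Pnpla1 in cluster 16, 1.34 (0.993 to 1.81), included 1. In inner root sheath-like cells 8 genes had at least 50 UMIs and 7 of these were higher, against 34.6% of all genes, and Elovl4, 2.25 (2.01 to 2.51), and Alox12b, 6.01 (3.34 to 11.3), were at least 2-fold higher, against 2.26% of 11347 genes, while Abca12, 1.00 (0.897 to 1.12), and Sptlc2, 0.973 (0.866 to 1.09), had intervals that included 1. Alox12b was 1.30 against 7.80 CPM there, close to the dermal level read as free RNA in control and above it in TP. In cortex-like cells Smpd1 had a ratio of 1.45 (1.05 to 1.99), and Elovl4 had 8 UMIs in control and 31 in TP.

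Outside the epithelium Ugcg differed in both directions. Ugcg in endothelial-like cells, at 278 against 525 CPM, had a ratio of 1.89 (1.49 to 2.42). At a resolution of 1.6 the endothelial-like clusters were numbers 39 and 41. Cluster 39, led by Ccl21a and Reln, held 55 control and 160 TP cells. Cluster 41, led by Flt1 and Cd36, held 62 and 62. The part of this mix in the ratio was not tested. In melanocyte-like cells, 485 in control and 179 in TP, Ugcg was lower in TP, with a ratio of 0.416 (0.360 to 0.480), and so was Sptlc2, with 0.608 (0.517 to 0.713). After thinning to 1000 UMIs, 40.6% (35.8 to 45.4) of the control and 23.3% (16.9 to 30.6) of the TP melanocyte-like cells had an Ugcg UMI, and unthinned 60.8% and 48.6%. Smpd1 in the same cells was 1.29 (0.916 to 1.82) times as high in TP, with an interval that included 1.

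The other genes of the pathway were taken as 5 lists, of sphingoid base and ceramide synthesis, very long chain fatty acids, acylceramides and the lipid envelope, glucosylceramides and lamellar bodies, and the breakdown of sphingomyelin and ceramide, 74 genes in all. In granular-like cells 63 of them had at least 50 UMIs, of which 5 exceeded 2-fold upward and 4 downward, against 2.41% and 13.1% of all genes, with a median log2 ratio of 0.12. Of 6 genes measured for acylceramides and the lipid envelope 3 were at least 2-fold higher, with a median of 0.67. Sdr9c7, a dehydrogenase that acts on the oxidised linoleate after the lipoxygenases, was 11.5 against 30.7 CPM, or 2.68-fold (2.24 to 3.23). The other 2 were Tgm1, the transglutaminase of the envelope, with a ratio of 2.19 (1.88 to 2.55), and the epoxide hydrolase Ephx3, with 2.01 (1.85 to 2.20). Of the 15 genes measured for very long chain fatty acids, Elovl1, an elongase that acts before Elovl4, was 209.9 against 539.8 CPM, or 2.57-fold (2.47 to 2.68), and the acyl-CoA synthetase Acsl3, 0.401 (0.338 to 0.475), was lower.

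The other genes of glucosylceramides and lamellar bodies had values near those of all genes in this class. Of 11 measured 3 were higher in TP by any amount, against 29% of all genes, with a median log2 ratio of -0.37 against -0.29. None was at least 2-fold higher and 1 was at least 2-fold lower, against 2.41% and 13.1%. This was Abca1, a cholesterol transporter, at 27.1 against 10.1 CPM, or 0.372-fold (0.318 to 0.436). Among 18 genes of sphingomyelin and ceramide breakdown, the sphingomyelinase Smpd3, 2.63 (1.79 to 3.99), was at least 2-fold higher, and the alkaline ceramidase Acer2, 0.387 (0.295 to 0.507), and Smpdl3b, 0.370 (0.246 to 0.559), were at least 2-fold lower, again against 2.41% and 13.1% of all genes. None of 13 genes of sphingoid base and ceramide synthesis passed 2-fold in either direction, beside these same shares, with a median log2 ratio of 0.17. Sptlc3, another catalytic subunit of serine palmitoyltransferase, had a ratio of 1.01 (0.977 to 1.04).

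Over all kept cells 12 of 72 genes of these lists were at least 2-fold higher and 1 lower, against 8.43% and 10.2% of all genes. Fa2h, which hydroxylates the fatty acid of ceramides, had 56 control and 325 TP UMIs and a ratio of 4.68 (3.52 to 6.33), and Sdr9c7 a ratio of 3.76. Smpdl3b had 0.464 and Acsl3 0.507. In spinous-like cells 2 of 58 genes, Degs1 and Tgm1, were at least 2-fold higher and 3, Acsl3, Cers4 and Smpdl3b, lower, against 1.41% and 6.77% of all genes, and in basal-like cells 0 of 58 were at least 2-fold higher and 2, Cers4 and Smpdl3b, lower, against 1.48% and 4.95%.

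The pattern of each gene over the classes was compared with all others as Pearson's r of log2(CPM + 1) over 49 profiles, the classes of both libraries with at least 100000 UMIs, for 14787 genes. Classes of 1 library share its depth and free RNA, so these values describe likeness only. Elovl4 was most like Krt10, Krt77 and Calm4, with r of 0.95 for Krt10. Alox12b was most like Flg, Krt77 and Prss27, with 0.82 for Flg. Abca12 was most like Skint5, Sdr16c5 and Sptlc3, Pnpla1 like Ceacam19, Aldh3b2 and Endou, and Aloxe3 like Slc28a3, 4930438A08Rik and Dnase1l3. Cers3 was nearest to Rapgefl1 and the desmosomal genes Dsp and Jup, with r from 0.90 to 0.93. Sptlc2 was nearest to Nck1, Elf2 and Pgm2, Ugcg to Cpeb4, Ppp1r16b and Nostrin, and Smpd1 to Sec11c, Tuba1a and Atp6v1g1, with r between 0.67 and 0.77. Among the 9 genes, r was highest for Elovl4 and Abca12, 0.87, and for Abca12 and Pnpla1, 0.83. The neighbours Alox12b and Aloxe3 had r of 0.66, and Ugcg had 0.58 with Sptlc2, 0.54 with Smpd1 and -0.02 with Abca12.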

How the data were processed

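The authors dissociated pooled dorsal skin, made 3′ libraries (Chromium GEM-X v4) and processed the reads with Cell Ranger 8.0.1 on mm10, per the labels and the submitters' processing notes. The deposited counts are raw UMIs, 1 whole number for each gene in each barcode. Barcodes were required to have 200 to 8000 genes and no more than 10% of UMIs from mitochondrial genes, the limits of the study, and 7.5% per library were removed as doublets, scored as DoubletFinder does in code written for this purpose (25% artificial doublets, 30 components, the nearest 1%). Removed doublets had median depths of 5200.5 (control) and 14358 (TP) UMIs.

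Both libraries were integrated in Seurat 5.3.0, with SeuratObject 5.2.0 under R 4.3.3, by reciprocal PCA on 1983 of 2000 variable genes, with the 9 genes and the 74 of the wider lists left out, and clustered (Louvain, resolution 1). A cluster was called after the class whose markers scored highest if at least 3 were detected, the score reached 1.25 and its leading 10 genes did not hold more markers of another class. The members, the lists and the score limit were chosen with earlier results of these data known.

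For each class the UMIs of its cells were added per gene and set over the total of that class (Python 3.11.15, numpy 2.4.6, scipy 1.17.1, pandas 2.3.3, scikit-learn 1.9.0, matplotlib 3.10.9). A gene was counted as 2-fold different with 1 UMI added per library and at least 50 UMIs in both libraries together. No test was run, since each group is 1 library of 15 pooled mice, and an interval cannot be read as a test between conditions. With a control total of 105944628 UMIs and a TP total of 131356483 in kept cells, counting error is small for all cells and large for rare genes in small classes. Beside a 0 the text gives the level that 3 UMIs would make. For shares of cells with a UMI each cell was thinned to 1000 UMIs, and 5362 control and 881 TP cells below that depth were set aside. All 9 genes are named, and from the wider lists the 2 largest rises and 2 largest falls among genes with at least 200 UMIs, in granular-like and in all kept cells, and the genes past 2-fold where 5 or fewer. Sptlc3 was named after its value was seen. For likeness the 3 genes of highest r are named. Alternatives were edgeR 4.0.16 TMM factors, a mitochondrial limit of 5%, 15% doublets or none removed, cells of at least 1000 UMIs, thinned counts, means of ln(counts per 10000 + 1), resolutions of 0.6 and 1.6, both libraries weighted to the class shares of control, no UMI added and no minimum of UMIs.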

Additional observations from a re-analysis of the deposited data

Results flagged for a closer look

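For 5 genes the counting interval of TP over control lay wholly above 1 in granular-like cells and wholly below 1 in another class with at least 50 UMIs of the gene in both libraries together. Below that minimum the intervals also lay below 1 for Cers3 in dermal fibroblast-like, 0.214 (0.0987 to 0.492), myeloid-like, 0.237 (0.0812 to 0.707), and melanocyte-like cells, 0.0939 (0.00221 to 0.625), and for Sptlc2 in smooth muscle-like cells, 0.489 (0.257 to 0.956). Whether the ratios differ between the classes was not tested, since each group is 1 library.

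Ugcg was 0.416 times as high in TP as in control in melanocyte-like cells and 0.788 times in dermal papilla-like cells, against 2.09 (1.91 to 2.28) in granular-like cells. Sptlc2 was 0.608 times as high in melanocyte-like, 0.762 times in endothelial-like, 0.811 times in outer bulge-like and 0.832 times in medulla or companion layer-like cells, against 1.2 (1.12 to 1.29). The endothelial-like class held the mix of clusters 39 and 41 given above, and its part in the Sptlc2 ratio was not tested. Abca12 was 0.687 times as high in outer bulge-like cells, where it was 38.9 against 26.7 CPM, and 0.333 times in myeloid-like cells, where it was 70.4 against 23.4 CPM on 26 and 41 UMIs. Elovl4 was 0.555 times as high in myeloid-like cells, on 19 and 50 UMIs, and Cers3 0.505 times in dermal papilla-like cells, at 8.17 against 4.13 CPM. The dermal papilla-like class joined clusters 9, 11 and 20, with 2270, 1704 and 290 control cells and 351, 447 and 720 TP cells. The part of this change of mix in the Ugcg and Cers3 ratios of the class was not tested. In the pooled dermal classes, read as free RNA, Elovl4 was 24.3 against 36.1 CPM and Abca12 16 against 16.1 CPM. Dermal papilla-like cells make up most of these classes, so no separate value of free RNA stands beside their Cers3 level. The part of free RNA in these low values was not tested.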

How the results depend on the processing

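No paired analysis was possible because each group is 1 library. The pooled level of the 9 genes, TP over control, was 2.10 over all kept cells, 1.37 in basal-like, 1.47 in spinous-like and 1.51 in granular-like cells, and lay above 1 under each alternative run. This pooled level weighs each gene by its UMIs. With TMM factors it was 2.49, 1.57, 1.76 and 1.94, with 3 of the 9 genes at least 2-fold different in spinous-like cells instead of 1 and 5 in granular-like cells instead of 3. Over all cells it was 2.02 with a mitochondrial limit of 5%, 2.12 with 15% doublets removed, 2.15 with none removed, 1.98 thinned, 1.69 as means of ln(counts per 10000 + 1) and 1.37 with the control's class shares, where 1 gene instead of 4 was 2-fold different. In basal-like cells it was 1.19 with the 5% limit, 1.48 thinned and 1.53 as ln means, with 2 genes 2-fold different in the last, as without a minimum of UMIs. Under the 5% limit and in thinned cells 0 genes were counted as 2-fold different instead of 1. Aloxe3 was at 2.38 and 1.39 there. These ratios are given without the added UMI and the minimum of 50 UMIs that the count requires, so under the 5% limit the fold itself was kept. In spinous-like cells the pooled level was 1.30 as ln means (2 genes), 1.37 at a resolution of 0.6 and 1.37 at 1.6, and thinning left 0 genes 2-fold different, since Alox12b, at a thinned ratio of 6.96, then had fewer than 50 UMIs. In granular-like cells it was 1.61 thinned, 1.19 as ln means, 1.38 at 0.6 and 1.18 at 1.6, where 0 genes were 2-fold different and Sptlc2 turned to 0.907. That class held 161 control and 627 TP cells instead of 1405 and 1862. Beyond this the cause of the moves was not tested. Of 297 values for single genes under the alternatives, 192 stayed within the counting interval of the value reported. The shares of all genes past 2-fold were not counted under the alternatives, so the numbers of 2-fold genes given here have no background beside them. With 1 pooled library per group, differences between animals, dissociation and depth cannot be told apart from TP.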
